A study of Oryza sativa Indica Group with 24 samples.

Results

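Well-watered rice leaves of 2 ages were compared, day 55 against day 45 after germination, in the control channel of 6 of the 24 arrays of a series on drought in the field. The plants were Oryza sativa of the Indica Group, cultivar Nagina 22, and the members were chosen by their labels alone: every array labelled with day 45 or day 55, with 3 arrays for each age. On both days the control leaves came from a plot kept at 100% of field capacity, that is, the moisture left in a soil once free water has drained away. Per the labels' protocols, day 45 belonged to the vegetative stage and day 55 to the stage just before flowering; day 52, between them, was also vegetative. The 3 arrays of a day differ in the RNA of their other channel, which came from plots at 60% (mild), 40% (moderate) and 15% (severe) of field capacity, 7 days into the treatment on day 45 and 17 days on day 55. They are called here by that level, although the channel compared held control RNA on each of them.

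Leaves are where a rice plant fixes carbon, and they store nitrogen in the proteins of photosynthesis. Around the change from vegetative growth to flowering the shoot tip stops making leaves and forms the panicle, and older leaves begin to release their nitrogen to younger organs and later to the grain. Nagina 22 is a landrace widely used as a donor of tolerance to drought and heat.

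The arrays were spotted with 7296 complementary DNA clones, each printed as a pair of spots. The files name the clones but do not pair the names with genes, and 0 of the 7296 names occurred among 39387 rice genes of a RefSeq table. Each clone is therefore given by its printed name, whose start is its set (MK, NL_ or NL). The print block is added for some clones. No role or sequence can be given for a clone, and the label of leaves could not be checked against leaf markers; the protocol for RNA extraction names panicles as well as leaves. A control plot carries 1 code in the labels, and several leaves of a plot made up a sample. The 3 control channels of a day may therefore hold the same RNA, in which case the p-values below measure the spread between arrays and not between plants. In whole leaves, fewer cells of a type and less RNA per cell cannot be told apart.

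On the 6 arrays, duplicate spots of a clone correlated at 0.958 to 0.981 in the control channel. A clone spot is called above the empty spots here when it exceeds the 95th percentile of the 816 empty spots on its array. This held for 34.2%, 14.9% and 41.4% of clone spots on the mild, moderate and severe arrays of day 45, and for 41.1%, 42.4% and 44.7% on those of day 55. The moderate array of day 45 was thus the dimmest against its empty spots. Between 1 and 182 clone spots of an array were saturated. The mild file of day 45 holds sums over the 80 pixels of a spot, and the unadjusted calls below numbered 1027 when it was divided by 80 and 1030 when it was used as deposited. The label of 1 of the 6 arrays is in doubt. The authors' deposited value table holds stress over control ratios. Its difference between days 52 and 55 correlated with that of the scanner files at 0.74 for the mild and 0.72 for the severe arrays, and at -0.75 for the moderate arrays, over 12843 to 12860 spots, so the table and the scanner files pair the moderate arrays of days 52 and 55 in opposite ways. Which of them is right was not tested, and the main values are also given without the moderate array of day 55.

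The question of the comparison was which transcripts differ between leaves of these ages when water is not limiting. No clone differed between day 55 and day 45 past the threshold: limma called 0 of 7296 clones (0%) at a Benjamini-Hochberg adjusted p under 0.05, and the smallest adjusted p was 0.218. At an unadjusted p under 0.05 there were 1030 clones (14.1%), 546 higher and 484 lower on day 55. Of these, 221 of the 546 higher and 74 of the 484 lower clones were above the empty spots on all 3 arrays of at least 1 day. Over all 7296 clones this held for 1990, so most clones on both lists lacked such a level on either day. The median clone differed by 0.65 on the log2 scale in absolute size between the days, while the median SD among the 3 arrays of a day was 0.69. The median standard error of a difference was 0.62. By size alone, 2270 clones (31.1%) differed by 2-fold or more in their means, 1133 higher and 1137 lower. The 3 values of day 55 all lay above those of day 45 for 755 clones (10.3%) and all below for 806 (11%). Without the moderate array of day 55, limma called 0 clones and 963 had an unadjusted p under 0.05. With the moderate file of day 52 in its place there were 0 and 768.

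The balance of higher and lower clones moved with the scaling. Of the clones with an unadjusted p under 0.05, 53% were higher on day 55 after quantile normalization and 34.5% after median centring of each array (375 higher and 713 lower), which moved the median difference of all clones from 0.01 to -0.18. After centring of each print block the share was 44.9%.

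On each of the 6 arrays most clone spots did not exceed the 95th percentile of the empty spots. Clones above the empty spots on all 3 arrays numbered 976 on day 45 and 1912 on day 55, and the first count was limited by the dim moderate array of day 45: on the mild and severe arrays alone they numbered 1819 and 2282. In all, 2096 clones lay above them on 0 of the 6 arrays. On all 6 arrays 898 clones were above, 99 of the MK set, 238 of NL_ and 561 of NL. Among these 898 the spread within a day was smaller, with a median SD of 0.3, and the median absolute difference between days was 0.46. Their differences ran from -2.32 to 1.56. The 3 values of day 55 lay all below those of day 45 for 213 of them and all above for 101, and a difference of at least 2-fold was seen downward in 86 and upward in 18. The fit over all clones gave 52 of these clones an unadjusted p under 0.05 (5.79%, against 14.1% of all clones), 42 lower and 10 higher. Lower clones outnumbered higher ones among the 898 by every scaling tried: 33 against 14 after cyclic loess, 116 against 0 after median centring and 159 against 63 after print-block centring. No test of this balance was made. Clones above the empty spots on all 3 arrays were fewer on day 45 than on day 55 (976 against 1912), so day 45 mostly set which clones entered. That choice favours clones high on day 45, and with it lower levels on day 55. The same 898 clones were used for every scaling, so agreement across scalings cannot decide the balance.

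The clones described next were those with the smallest unadjusted p in each direction among clones whose 2 days did not overlap and that lay above the empty spots on all 3 arrays of the brighter day. Each has a limma adjusted p of 0.218 and is not called. Levels are log2 values of the control channel, with 0 at the median clone spot.

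**Figure D1:**
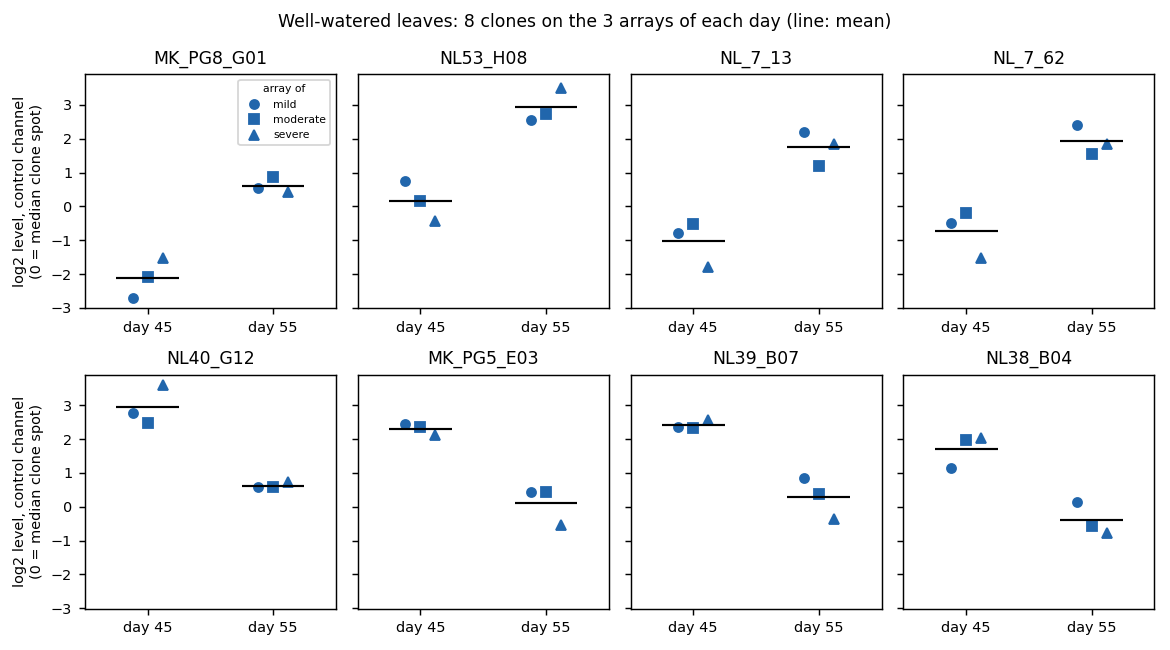
Log2 level in the control channel (vertical axis, 0 at the median clone spot) of 8 clones on the 3 arrays of day 45 and of day 55; symbols give the stress level of the other channel and lines the mean. For all 8 clones, which were chosen for it, the points of the days do not overlap; the mean difference runs from -2.32 for NL40_G12 to 2.78 for NL_7_13.

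Clone NL53_H08 (print row 8, column 4) had levels of 0.75, 0.17 and -0.42 on the mild, moderate and severe arrays of day 45 and 2.56, 2.74 and 3.51 on those of day 55. Its difference was 2.77 ± 0.53 (limma SE, 3 arrays a day). Since 1 of the 3 arrays of day 45 was above the empty spots, its mean is given as at least 3.76-fold higher on day 55, where the measured means differ 6.83-fold. Clone NL_7_13 stood at -0.78, -0.52 and -1.80 on day 45 and at 2.21, 1.19 and 1.84 on day 55. None of its 3 day 45 values was above the empty spots, so that only a bound holds, at least 1.69-fold higher on day 55. The bound sets the mean of the bright day against the higher of the clone's own level and the lowest level above the empty spots on each array of the dim day. Clone NL_7_62, of the same print block in row 7, column 4, stood at -0.50, -0.18 and -1.51 on day 45 and at 2.41, 1.56 and 1.85 on day 55, at least 1.93-fold higher. Clone MK_PG8_G01 (row 11, column 2) had the smallest limma unadjusted p of the higher clones (0.000604) and went from -2.70, -2.09 and -1.52 to 0.55, 0.87 and 0.43. It was not above the empty spots on any array of day 45, and the bound on its fold came out under 1, so that no fold is given.

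Among the lower clones, NL40_G12 (row 6, column 3) was above the empty spots on all 6 arrays. Its levels were 2.78, 2.47 and 3.59 on the mild, moderate and severe arrays of day 45 and 0.58, 0.57 and 0.72 on day 55, 5-fold lower on day 55 (-2.32 ± 0.49, limma SE). The values of day 55 differed by less than those of day 45. Clone MK_PG5_E03 (row 11, column 1) stood at 2.46, 2.36 and 2.11 on day 45 and at 0.43, 0.45 and -0.55 on day 55, with 2 of 3 arrays above the empty spots on day 55, and was at least 3.85-fold lower. Clone NL39_B07 (row 5, column 2) stood at 2.35, 2.34 and 2.56 on day 45 and at 0.85, 0.39 and -0.36 on day 55, again with 2 of 3 arrays above the empty spots, and was at least 3.81-fold lower. Clone NL38_B04 (row 5, column 3) had 1.14, 1.97 and 2.03 on day 45 and 0.15, -0.58 and -0.77 on day 55, where it was not above the empty spots on any array. Its mean was at least 2.64-fold lower. In both MK_PG5_E03 and NL39_B07 the severe array of day 55 gave the lowest value.

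Without the moderate array of day 55, the differences of these 8 clones were 2.52 for MK_PG8_G01, 2.96 for NL53_H08, 3.12 for NL_7_13, 2.94 for NL_7_62, -2.39 for NL40_G12, -2.46 for MK_PG5_E03, -2.26 for NL39_B07 and -2.08 for NL38_B04. All differences kept their direction, which the choice of clones with days that did not overlap makes nearly certain. After print-block centring they were smaller: 1.63, 1.21, 1.50 and 1.40 for the 4 higher clones in the same order, -0.93 for NL40_G12, -1.54 for MK_PG5_E03 and -0.98 for NL39_B07. The difference of NL38_B04 became 0.02.

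Among clones measured on all 6 arrays, other members with days that did not overlap were looked at after their values were seen. The largest differences toward day 55 belonged to NL10_H07, with 2.64, 2.62 and 1.52 on day 45 and 3.65, 3.69 and 3.80 on day 55 (2.74-fold, limma unadjusted p 0.02, adjusted p 0.276), and NL11_D04, with 2.79, 2.06 and 2.05 on day 45 and 3.68, 3.78 and 3.68 on day 55 (2.66-fold). In both, the 3 values of day 55 lay close together. After NL40_G12, the largest differences toward day 45 belonged to NL_18_20, with 3.26, 4.58 and 4.26 on day 45 and 2.49, 2.59 and 0.59 on day 55 (4.42-fold), and MK_PG5_A09, with 3.37, 3.15 and 3.22 on day 45 and 1.99, 1.78 and 0.67 on day 55 (3.41-fold). Here the severe array of day 55 was again the lowest. The print-block-centred differences of these 4 clones were 1.97, 0.44, -2.38 and -1.11, so that for NL11_D04 the difference shrank most.

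The brightest clones by their mean over the 6 arrays were NL19_H07, NL6_B11 and MK_PG6_A01. Clone NL19_H07 had levels of 5.25, 5.26 and 5.29 on day 45 and 5.23, 5.27 and 5.25 on day 55, a difference of -0.02 ± 0.43 (limma SE). Of its 12 spots 8 were saturated, as were 7 for NL6_B11 and 8 for MK_PG6_A01, so that a difference at this level could not have been seen in full. A clone with 1 saturated spot, NL40_D07, stood at 4.78, 4.91 and 4.49 on day 45 and at 4.82, 4.67 and 4.66 on day 55. It was 1 of the 3 clones chosen for a difference nearest to 0 among the 300 brightest, with NL19_H07 and NL14_A01 (0.02 ± 0.44). Of the 12 spots of NL14_A01, 4 were saturated. Quantile normalization gives the brightest spots of every array nearly the same values, which favours differences near 0 for such clones. After median centring the differences were -1.48 for NL19_H07, -1.51 for NL6_B11, -1.48 for MK_PG6_A01, -0.71 for NL40_D07 and -1.1 for NL14_A01.

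Differences between the days lay in patches on the slide. Print blocks are the 48 squares printed by single pins, in 12 print rows and 4 columns. Between blocks lay 42.6% of the variance of the clone differences. Block medians ran from -1.98 in row 5, column 3, where 123 of 162 clones had an unadjusted p under 0.05 and a lower level on day 55 (75.9%), to 1.53 in row 8, column 4, where 93 of 162 were higher (57.4%). In the lowest block 19 of 162 clones were above the empty spots on all 3 arrays of at least 1 day, in the highest 156 of 162. The low median thus rests mostly on clones without such a level on either day. The neighbours above and below the lowest block, rows 4 and 6 of column 3, had medians of -1.29 and -1.35, with 21 and 27 such clones of 162. Of the clones described above, NL38_B04 lies in the lowest block, NL53_H08 in the highest and NL40_G12 in row 6 of column 3. The 3 blocks with most lower clones held 242 of the 484 lower clones (50%) among 6.66% of all clones, and the 3 blocks with most higher clones held 204 of the 546 higher clones (37.4%). The stress channel, scanned from the same spots, had block medians that correlated with those of the control channel at 0.82 over the 48 blocks, which share their slides and spots. After print-block centring, 200 of the 546 higher and 157 of the 484 lower clones still had an unadjusted p under 0.05 in their direction. Clones were printed by set, so that a block effect and a difference of a clone set cannot be fully told apart.

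**Figure D2:**
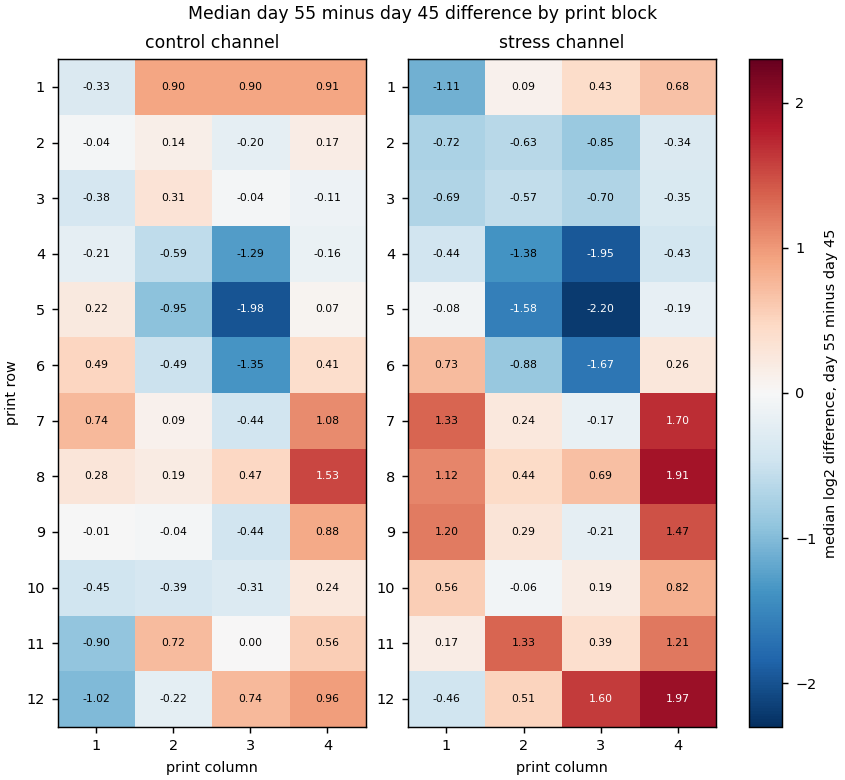
Median log2 difference, day 55 minus day 45, of the clones of each of the 48 print blocks (12 print rows by 4 print columns) in the control channel (left) and the stress channel (right); red is higher and blue lower on day 55. In the control channel the lowest median, -1.98, lies in row 5, column 3 and the highest, 1.53, in row 8, column 4, and both lie in patches of the same colour in the stress channel.

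By set, the median difference was 0.19 for the 1152 MK clones, 0.04 for the 1536 NL_ clones and -0.02 for the 4608 NL clones, against 0.013 for all. The MK set had 121 higher and 69 lower clones at an unadjusted p under 0.05, NL_ had 116 and 39, and NL had 309 and 376. The balance turned in all 3 sets after print-block centring: MK had 97 higher and 148 lower clones, NL_ had 44 and 119, and NL had 318 and 297.

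With the filter for clones above the empty spots on all 3 arrays of at least 1 of the days, 1990 clones entered the fit, limma called 0 (0%), and the smallest adjusted p was 0.0537. Of these, 509 had an unadjusted p under 0.05 (25.6%), 325 higher and 184 lower. The filter favours 1 direction: 1014 clones passed through day 55 alone, of which 764 had a higher mean on day 55, and 78 through day 45 alone, all 78 with a lower mean on day 55. In that filtered set, 84 higher and 99 lower clones had an unadjusted p under 0.05 both before and after print-block centring. Of these, the 3 with the smallest p after centring in each direction were looked at after their values were seen. The higher ones included NL24_D12, with 2.84, 3.35 and 2.60 on day 45 and 4.09, 4.19 and 4.18 on day 55, and NL24_F04, with 2.31, 2.53 and 1.79 on day 45 and 3.34, 3.52 and 3.49 on day 55. The other higher clone was NL38_A06. Both NL24 clones lay higher on all 3 arrays of day 55, in a block whose median clone was lower. The lower clones were NL50_A09, with 3.02, 3.24 and 3.60 on day 45 and 2.25, 2.72 and 1.58 on day 55, and MK_PG8_A09 and NL_6_72. All 6 had an adjusted p of 0.0744 after centring.

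Arrays of 1 day resembled each other somewhat more than arrays of the other day. Across clones, the Pearson correlation of control channels averaged 0.72 over the 3 pairs of day 45, 0.72 over the 3 pairs of day 55 and 0.66 over the 9 pairs between them, with a range of 0.55 to 0.72. Over the 898 clones above the empty spots on every array it averaged 0.86 within a day and 0.79 between days. The lowest pair between the days was the moderate array of day 45 with the severe array of day 55, at 0.55, and that array correlated at 0.72 with the moderate array of day 55. The moderate array of day 55 correlated at 0.79 with mild day 55 and 0.67 with severe day 55, and at 0.76 with mild day 52 and 0.48 with moderate day 52. It thus lay nearest to the mild array of its own labelled day. For day 52 the means were 0.51 against day 45 and 0.53 against day 55, and 0.62 among its own arrays. After print-block centring these 3 means were 0.70, 0.72 and 0.77, against 0.74 between days 45 and 55, so that the 3 days then lay closer together. The arrays share clones, print pattern and dye, and these values carry no test.

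**Figure D3:**
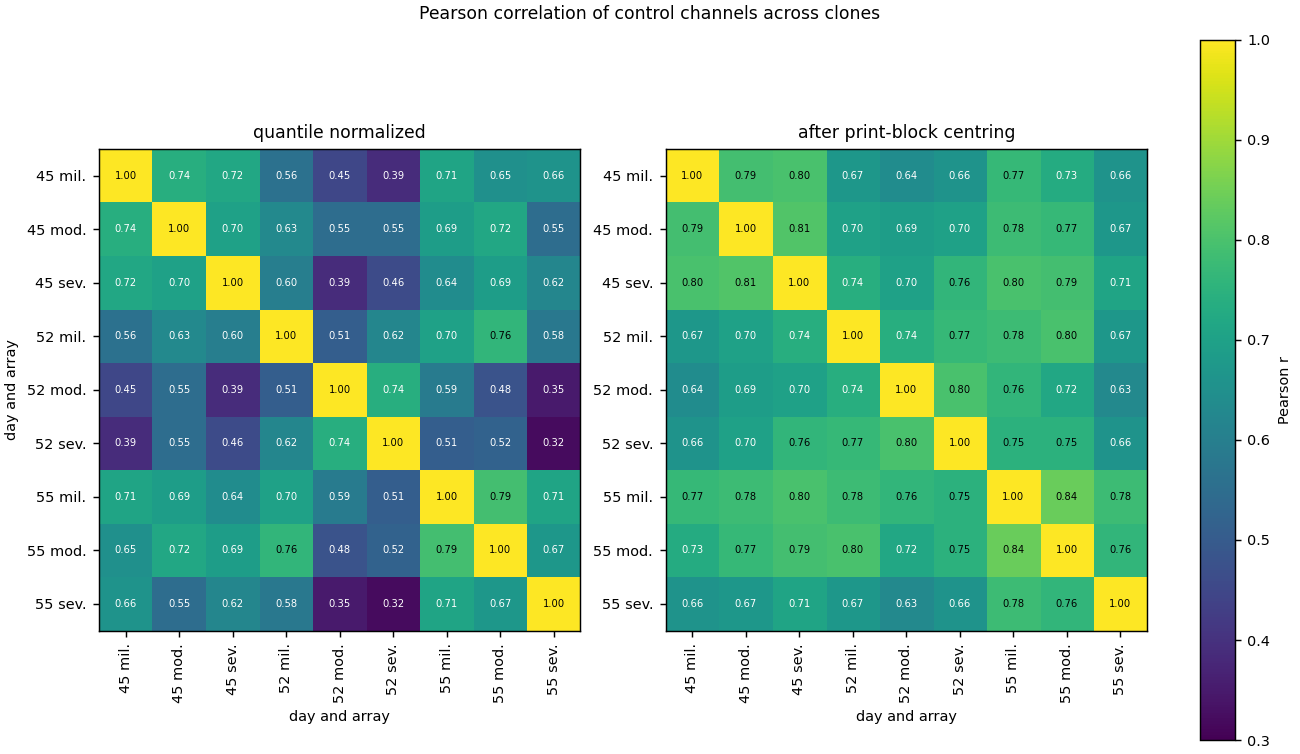
Pearson correlation across clones between the control channels of the 9 arrays of days 45, 52 and 55 (mil., mod. and sev. name the stress level of the other channel), after quantile normalization (left) and after print-block centring (right). Pairs of days 45 and 55 average 0.66 on the left and 0.74 on the right; most cells of day 52 are darker on the left than on the right.

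Set between the other ages, limma called more clones between day 52 and day 45 than between day 55 and day 45. For day 55 against day 45, a fit of the 9 arrays of days 45, 52 and 55 called 0. It gave 843 clones (11.6%) an unadjusted p under 0.05. In the fit of 9 arrays, limma called 317 of 7296 clones (4.34%) between day 52 and day 45 at a Benjamini-Hochberg adjusted p under 0.05, 209 higher and 108 lower on day 52, and 1681 at an unadjusted p under 0.05 (23%). The balance depended on the processing: 59 called clones were higher and 127 lower after print-block centring, 146 and 142 after median centring, and 106 and 253 among the clones above the empty spots, a filter built on days 45 and 55 only. Between day 55 and day 52 it called 0 (0%), while 1638 passed 0.05 unadjusted (22.5%); the smallest adjusted p was 0.128. Over the clones above the empty spots, by the same filter, it called 400, of which 352 were higher and 48 lower on day 55. That filter favours this direction, since 1014 of its clones passed through day 55 alone and day 52 had no part in it. With the moderate files of days 52 and 55 exchanged limma called 0, and 567 passed 0.05 unadjusted. The comparisons share the arrays of day 45 or day 52, and whether the difference of day 52 itself differed from that of day 55 was tested only as day 55 minus day 52. The 209 higher clones had a median difference of 3.15 on day 52 and 1.48 on day 55, both against day 45. For the 108 lower clones the medians were -2.70 and -1.15. Their choice by the difference of day 52 favours a larger size on day 52, so these sizes cannot rank the days. The values of day 55 also come from the fit of 6 arrays. The number of calls moved with single arrays. Limma called 0 clones without the severe array of day 45 or of day 52, 51 without the mild and 125 without the moderate array of day 45, 490 without the mild and 152 without the moderate array of day 52, and 239 to 274 without an array of day 55. It called 0 with the moderate files of days 52 and 55 exchanged. In each of these fits all 209 and all 108 clones kept their direction, which their choice as called on these same arrays makes nearly certain. Without the severe array of day 52 their medians were 2.88 and -2.64. After print-block centring the medians were 1.27 and -1.34, and 23 of the 209 and 26 of the 108 were still called.

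Of the 317 clones, 84 lay above the empty spots on all 3 arrays of their brighter day, 46 higher and 38 lower. Clone NL18_F08, chosen after its values were seen, had -0.67, 0.10 and -1.31 on day 45, 2.80, 4.22 and 4.07 on day 52 and 1.35, 0.75 and 0.27 on day 55. Its 3 days did not overlap, with day 52 the highest (limma adjusted p 0.0172 against day 45). Clone NL_18_13 had 3.55, 3.72 and 3.23 on day 45, -0.36, -1.64 and -1.09 on day 52 and 1.38, 0.02 and 2.25 on day 55. Its levels were lowest on day 52, and day 55 lay between.

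Of the 8 clones described for day 55 against day 45, 2 were called between day 52 and day 45 by limma. Clone MK_PG8_G01 was called higher on day 52 (adjusted p 0.0452), but it was above the empty spots on 0 arrays of either day, so that no size is given. Clone MK_PG5_E03 was called lower (adjusted p 0.018); it was above the empty spots on 3 arrays of day 45 and on 0 of day 52. The other 6 were not called. Of these, NL40_G12, NL39_B07 and NL38_B04 were above the empty spots on all arrays of both days, with fitted differences of -0.85, -0.54 and -0.26 from day 45 to day 52.

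**Figure D4:**
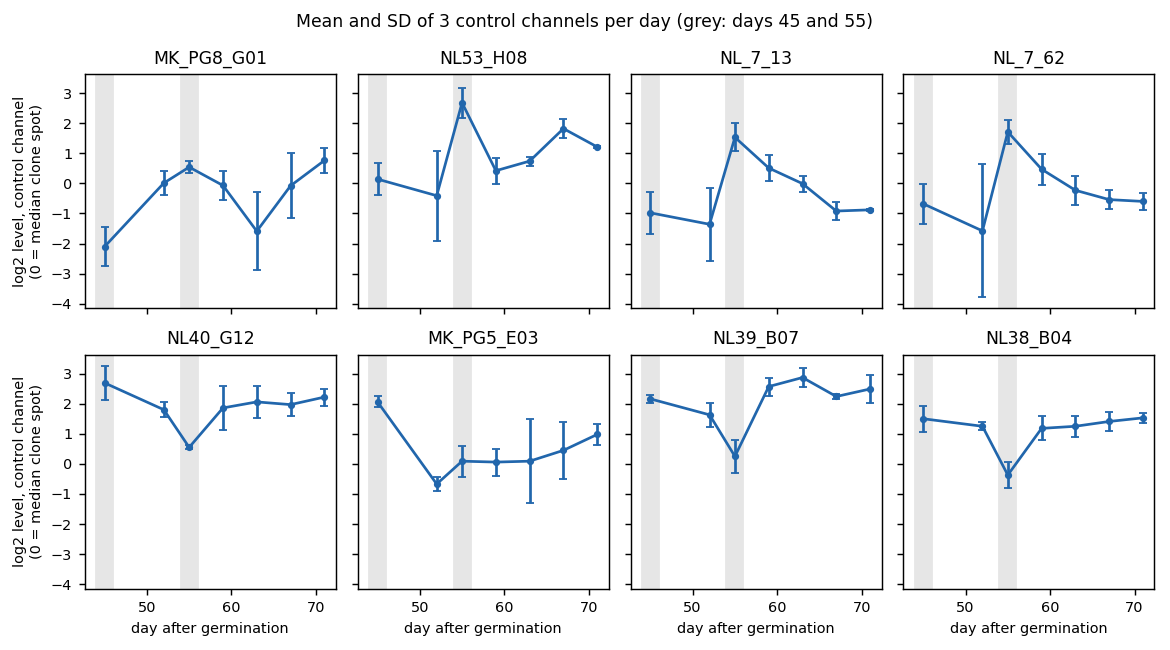
Mean and SD (n = 3 arrays) of the control-channel log2 level of the 8 clones on days 45 to 71, all 21 arrays quantile normalized together (vertical axis, 0 at the median clone spot). NL39_B07 and NL38_B04 have their lowest mean on day 55, and NL_7_13, NL_7_62 and NL53_H08 their highest. The levels are not print-block centred.

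Over the later ages, with all 21 scanner arrays normalized together, several of these clones stood on day 55 away from both earlier and later days. Clone NL39_B07 had a mean of 2.16 ± 0.12 on day 45 and of 1.63 ± 0.40 on day 52 (SD, n = 3). It stood at 0.25 ± 0.54 on day 55, at 2.57 ± 0.30 on day 59, and at 2.24 to 2.87 on days 63 to 71. Clone NL40_G12 had 2.69 ± 0.58 on day 45 and 0.55 ± 0.07 on day 55, then 1.86 ± 0.72 on day 59. Both were lower on day 55 than on any other day with scanner files. Clone NL_7_13 went from -0.98 ± 0.69 on day 45 to 1.53 ± 0.47 on day 55, and its mean was 0.51 ± 0.42 on day 59 and -0.88 ± 0.03 on day 71. By contrast, MK_PG5_E03 had 2.06 ± 0.18 on day 45 and between -0.67 and 0.98 on every later day. The levels were not print-block centred. The blocks of NL39_B07, NL40_G12 and NL_7_13 had median differences of -0.95, -1.35 and 1.08 between days 45 and 55, in the direction of these clones. Days 59 to 71 were quantified in another session than days 45 to 55, per the file headers, and the clones were chosen for day 55, so these courses are descriptions.

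In the stress channel of the same arrays, limma called 0 of 7296 clones between the days (0%), with 1866 at an unadjusted p under 0.05 (25.6%). It called 94 after print-block centring and 357 over the clones that passed the control-channel filter, and with the moderate file of day 52 in place of that of day 55 it called 0, with 817 unadjusted. Of the 546 clones higher in control leaves, 534 had the same sign in the stress channel (97.8%), as did 481 of the 484 lower (99.4%). Both channels are read from the same spots of the same slides, on which they correlated at 0.80 to 0.94, so the count was not tested against chance.

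The difference between the days itself differed between stressed and control leaves for 10 clones (0.137%, limma on the difference of the channels, Benjamini-Hochberg adjusted p 0.033 to 0.0443), all lower in the stress channel relative to control; 1163 had an unadjusted p under 0.05 (15.9%). All 10 belong to the NL set and were above the empty spots on all 6 arrays of the control channel. In the stress channel they were above them on 1 to 3 arrays of day 45 and on 0 to 2 of day 55. The stress levels of day 55 were thus mostly not above the empty spots, and the sizes below are fitted values that rest on them. Control differences of these clones ran from 0.20 to 1.37 and stress differences from -2.27 to -1.02. Clone NL43_E01 had control levels of 2.93, 2.28 and 2.74 on the mild, moderate and severe arrays of day 45 and 3.42, 3.32 and 3.33 on day 55. Its stress levels were 1.96, 1.96 and 2.15 on day 45 and 0.33, -0.18 and -0.12 on day 55. The fitted interaction was -2.72 ± 0.36 (limma SE). Its stress level was the lower of the channels on all 6 arrays. Each channel was normalized on its own, however, so levels of the channels do not share a scale, and only the change between days is compared. The stress channel was above the empty spots on 2 arrays of day 45 and 0 of day 55. Clone NL24_F04, one of the clones higher on day 55 within its block, had stress levels of 1.79, 2.04 and 0.94 on day 45 and 0.41, 0.58 and 0.17 on day 55 (interaction -2.44 ± 0.35). The others were NL42_B12, NL38_C02, NL39_G01, NL7_E11, NL42_D12, NL24_F03, NL43_C11 and NL16_H08. The number of calls moved with single arrays: limma called 47 clones without the mild array of day 45 and 0 without any 1 of the other 5. The 10 interactions themselves lay between -2.86 and -1.96 in these 6 fits, all 10 lower in each. With all arrays, on which the clones were chosen, they ran from -2.72 to -2.14. Limma also called 0 after median centring, with the stress level of the array as a replicate block, and with the moderate file of day 52 in place of that of day 55. After median centring the 10 interactions ran from -2.35 to -1.74. With the block they cannot change, since each day holds 1 array of each stress level.

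**Figure D5:**
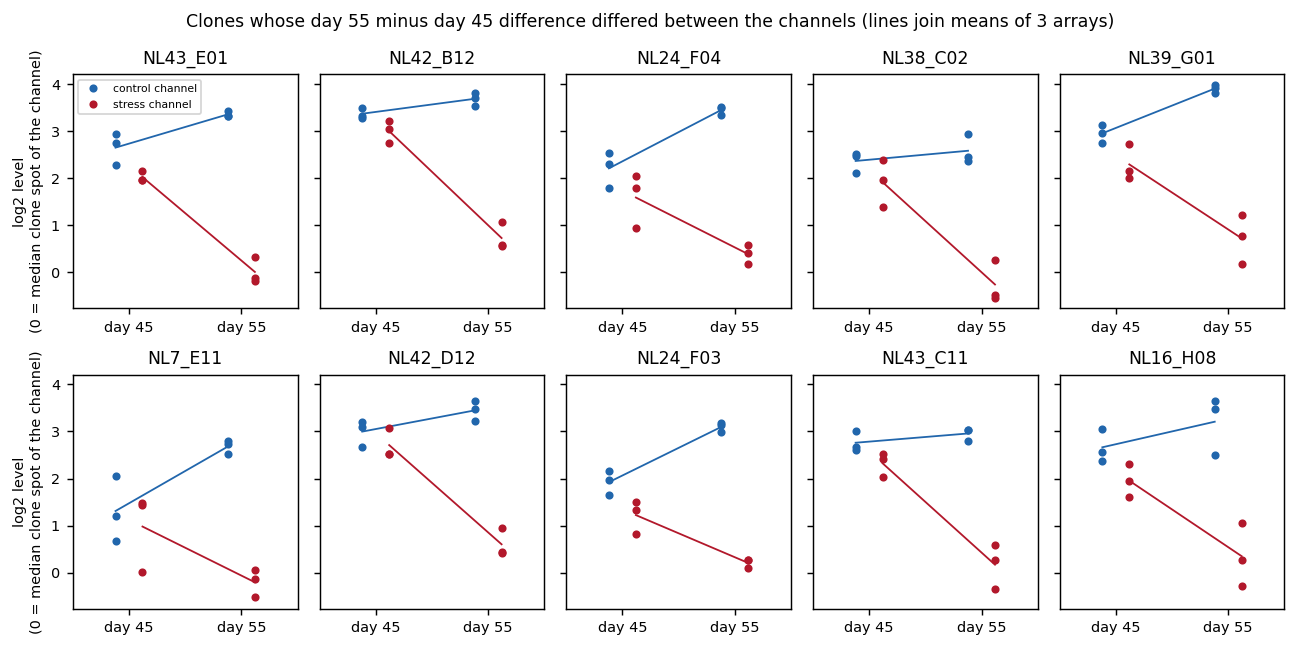
Log2 level in the control channel (blue) and the stress channel (red) on the 3 arrays of day 45 and of day 55 for the 10 clones whose difference between days differed between the channels; lines join the means and 0 is the median clone spot of each channel. On day 55 all red points lie below the blue points, each channel on its own scale. The blue means are higher on day 55 than on day 45 by 0.20 to 1.37.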

How the data were processed

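Spot intensities and local backgrounds on a linear scale were taken from the QuantArray files deposited by the authors, per the file headers; the control channel is Alexa 488, per the labels. The authors' deposited value table holds log2 ratios of stress over control, centred per spot within each stress level (means within 0.00375 of 0, column medians from -0.18 to 0.09), and served only to check array labels; how it was normalized earlier is not given in the sources used. Its scale and direction follow from its match with the scanner ratios. Intensities were background-corrected with normexp (offset 50), put on the log2 scale, and quantile normalized over clone spots of the arrays in a fit, leaving out control, empty and ignored spots. Duplicate spots were averaged.

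Days were compared with limma 3.58.1, two-sided, under R 4.3.3 (functions lmFit and eBayes), with Benjamini-Hochberg adjustment over all 7296 clones and a threshold of 0.05. Plots used matplotlib 3.10.9. Fits were tested on simulated data. Named clones were, where under 4 were called in a direction, the 4 with the smallest unadjusted p per direction among clones with non-overlapping days and above the empty spots on all arrays of the brighter day, the 3 brightest clones, and the 3 with differences nearest to 0 among the 300 brightest; clones named otherwise are said to be chosen after their values were seen. Members, lists and rules were chosen with earlier results of these data known. Array numbers limit the precision. The stress level that numbers the arrays pairs no control samples, so the block is an alternative.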

Additional observations from a re-analysis of the deposited data

Results flagged for a closer look

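The day 55 minus day 45 difference itself differed between stress and control channels for 10 clones by the limma interaction test. With 1 array left out the count lay between 0 and 47, and the differences of the 10 clones between -2.86 and -1.96.

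Control spots, 144 on each array, entered no comparison. In the control channel, between 31.9% (moderate array of day 45) and 64.6% (mild array of day 45) of them exceeded the 95th percentile of that array's empty spots. The labels and headers used here do not say what these spots hold.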

How the results depend on the processing

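Between days 55 and 45 limma called 0 clones under each alternative run, except 6 (1 higher, 5 lower) with duplicate spots kept apart. Without normalization 11 clones had an unadjusted p under 0.05. In that run the mild file of day 45 kept its sums over 80 pixels, and the SE of each described clone was 2.01. It could thus hardly call a clone. Of the 8 described clones, chosen for days that did not overlap, 7 kept their direction in all 21 alternatives. The replicate block, the filter for clones above the empty spots alone, and duplicate spots kept apart leave the estimate unchanged. Clone NL38_B04 turned to 0.02 with print-block centring, also over clones above the empty spots (chosen after seeing the data). The cause was not tested. Between days 52 and 45 (317 calls) there were 186 after print-block centring and 0 with the moderate files exchanged. Between days 55 and 52 (0 calls) there were 400 over the clones above empty spots, a filter built on days 45 and 55 only, which favours clones higher on day 55. The stress channel (0 calls) gave 94 after print-block centring and 357 over clones above empty spots. The interaction (10 calls) gave 60 without background correction, 0 after median centring, 35 after print-block centring and 0 with the replicate block. It gave 0 with the moderate file of day 52 for that of day 55 and 25 with loess of the ratios (added after seeing the data). Over clones above empty spots it gave 193, of which 174 were lower. That filter was built on the control channel only, and 1014 of its clones passed through day 55 alone. It thus favours differences that are lower in the stress channel, and the 193 cannot back the 10 calls. Calls with 1 array left out ranged from 0 to 0 between days 55 and 45, 0 to 490 between days 52 and 45, 0 to 0 between days 55 and 52, 0 to 0 in the stress channel and 0 to 47 for the interaction. With the stress level as a replicate block, limma called 0 clones between days 55 and 45 and 229 between days 52 and 45; the numbers pair no samples by design. The quantification session could not be a block, since days 45, 52 and 55 share 1 session. Most clones were not above the empty spots on all arrays of either day, which limits their comparison.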
